A study of Mus musculus with 5 samples.

Results

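Tbx2, Tbx3, Tbx15 and Tbx18 were followed in single-cell RNA-seq libraries of the developing mouse penis and limbs. They were chosen by symbol, as 4 of the 32285 genes in the count matrices, with earlier results of these data known. The series holds 3 penis libraries from males at P6 (postnatal day 6), taken from the glans with the prepuce removed, and 1 forelimb and 1 hindlimb library from embryos 15 days after conception. All carry the genotype label C57BL/6N, with no mutation or treatment, whereas the study's methods name C57BL/6J. The methods describe penis tissue from 3 mice of 2 litters, without tying each single-cell library to one of them, and limbs from male embryos. No label ties a library to a mouse, embryo or litter, and the 2 limb libraries may share embryos. The p-values thus measure the spread between these libraries. Tissue, age and library preparation cannot be told apart, since every penis library is postnatal and every limb library is embryonic. "Limb" below means the forelimb and hindlimb libraries as one group.

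The T-box genes encode transcription factors that bind DNA through a shared domain, the T-box. Tbx2 and Tbx3 are close relatives that mainly repress transcription, and Tbx3 is known for its requirement in limb, mammary and genital development through ulnar-mammary syndrome. Tbx15 and Tbx18 form another related pair. Tbx15 is known for its role in the limb and shoulder skeleton, and Tbx18 for its expression in the mesenchyme around developing organs and in pericytes, the contractile cells that wrap small vessels.

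The kinship is visible in the coding sequence. An in-frame stretch of 60 coding bases is shown for each gene from its GENCODE transcript (GRCm38), because reads can only be told apart where such paralogs differ. It is the stretch of Tbx2 with the highest summed identity to the best match in each other gene, so the choice is anchored on Tbx2. Capitals mark the positions at which the 4 genes do not all have the same base.
Tbx2: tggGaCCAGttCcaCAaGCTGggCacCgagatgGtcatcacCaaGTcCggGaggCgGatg
Tbx3: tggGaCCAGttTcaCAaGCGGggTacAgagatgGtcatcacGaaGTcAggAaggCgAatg
Tbx15: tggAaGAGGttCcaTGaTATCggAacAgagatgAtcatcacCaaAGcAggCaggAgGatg
Tbx18: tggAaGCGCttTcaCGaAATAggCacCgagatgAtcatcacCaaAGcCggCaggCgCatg
Over these 60 bases, 38 were the same in all 4 genes. Tbx2 and Tbx3 shared 52 and Tbx15 and Tbx18 shared 49, while the pairs across the groups shared 41 to 46. The longest run of identical bases between any transcripts of any pair was 23, between Tbx15 and Tbx18, so a read longer than that differs between the members of any pair.

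Tbx2 (ENSMUSG00000000093) lies at chr11:85832551-85841948 on the plus strand with 7 exons, and Tbx4 starts 44.5 kb beyond it. Tbx3 (ENSMUSG00000018604) lies at chr5:119670669-119684724 on the plus strand with 8 exons, 148 kb from Tbx5. Tbx15 (ENSMUSG00000027868) lies at chr3:99240381-99354259 on the plus strand and Tbx18 (ENSMUSG00000032419) at chr9:87702800-87731260 on the minus strand, each with 8 exons. Tbx3, Tbx15 and Tbx18 each overlap an antisense gene, which are Tbx3os1, Gm43120 and D030062O11Rik. Tbx3os1 and Gm43120 were each counted as a gene of its own, while no counts were found under the symbol D030062O11Rik. The software named by the study's methods, Cell Ranger, by default counts only reads in the sense of a gene, but the setting used is not given in the sources used here. Tbx3os1 stood at 247 to 289 CPM in penis mesenchyme and 26.5 to 28.7 in limb mesenchyme.

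After the cell limits of the study's methods, 5708 to 7085 cells were kept per penis library, with 22057 from forelimb and 20514 from hindlimb. The median depth, in UMIs (unique transcript molecules), was 8791.5 to 9909 for the penis libraries and 5358 and 6057 for the limb libraries. Penis libraries shared at most 19 cell barcodes pairwise and the limb libraries shared 124. Cells were assigned by the number of marker genes with a UMI to 14 gates, none of which uses a Tbx gene. Cells that entered the gates of different lineages were set aside, but those in both the chondrocyte and the osteoblast gate were kept as chondrocytes. Because deeper cells show more markers, the gates are not independent of depth. The mesenchyme gate, of connective tissue progenitors and fibroblasts, held 3749 to 4593 cells per penis library and 10836 to 11585 per limb library. The penis mesenchyme gate had 0 of its own markers among its 10 leading genes, which were led by Dpt and Grm7. In the chondrocyte, tendon and pericyte gates the first gene was an own marker in both tissues. Own markers among their 10 leading genes numbered 5, 4 and 4 in penis and 7, 6 and 3 in limb. In the penis chondrocyte gate, Col2a1 was followed by Col10a1 and by Ibsp, a marker of the osteoblast gate. UMIs were summed over the cells of a gate in each library and are given as CPM, the UMIs of the gene per 1000000 UMIs of that gate.

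Mesenchyme held most of the transcripts of all 4 genes, and it was also the largest gate, with 64.8 to 66.2% of the kept cells and 69.6 to 71.2% of all their UMIs in penis and 52.5 to 52.8% and 53.9 to 54.5% in limb. Of the UMIs of a gene in the kept cells, the mesenchyme gate held 81.8 to 82.3% for Tbx2 in penis and 59.5 to 65.8% in limb, 86.4 to 87.7% and 73.2 to 76.1% for Tbx3, 73.8 to 78.6% and 63.9 to 67.3% for Tbx15, and 87.9 to 89.8% and 74.4 to 79.7% for Tbx18. Tbx15 in penis and Tbx2 in limb thus lay nearest to the share of all UMIs. In leukocytes, which should lack the genes, Tbx2 stayed at or below 1.38 CPM, Tbx3 at or below 4.84, Tbx15 at or below 6.03 and Tbx18 at or below 2.22. Of cells thinned to 2000 UMIs, 7.82% ± 0.22 (SD, n = 3) of penis mesenchyme cells held a Tbx2 UMI against 0.198% ± 0.029 of penis leukocytes. Median depths before thinning were 9208 to 10487 UMIs for the penis mesenchyme cells and 6518 to 7444 for the leukocytes.

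**Figure D1:**
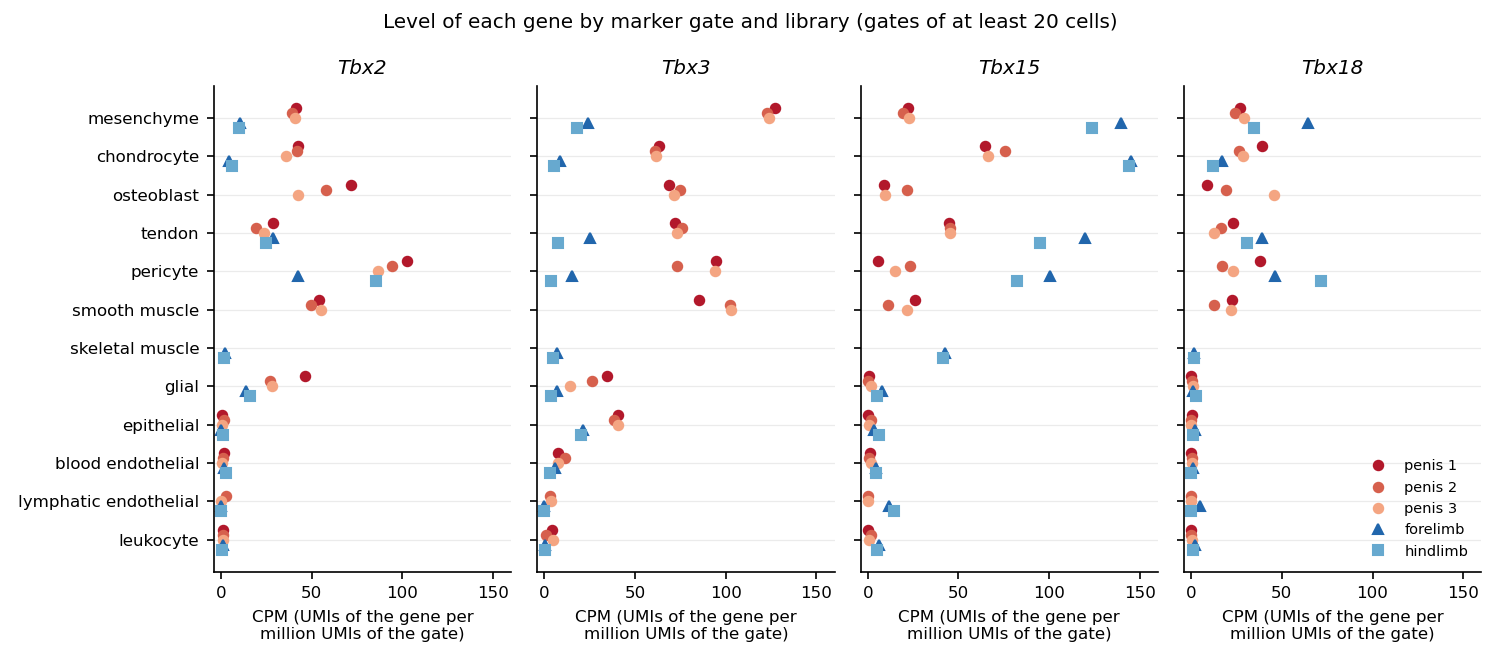
Level of each gene in CPM (x axis) in each marker gate (rows), with 1 point per library, red circles for penis, a blue triangle for forelimb and a blue square for hindlimb; gates under 20 cells in a library are not drawn. Tbx15 in mesenchyme sits at 19.6 to 22.8 CPM in penis and at 124 and 140 in limb, Tbx3 is higher in penis, and all 4 genes stay at or below 6.03 CPM in leukocytes.

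The first comparison was between penis and limb within a gate. Tbx2 and Tbx3 were higher in penis mesenchyme and Tbx15 was lower. Tbx2 stood at 41.6, 39.2 and 40.9 CPM in the penis libraries, 10.3 in forelimb and 9.85 in hindlimb. Tbx3 stood at 127, 123 and 124 CPM in penis, 24.3 in forelimb and 17.9 in hindlimb. Tbx15 ran the other way, at 22.0, 19.6 and 22.8 CPM in penis, 140 in forelimb and 124 in hindlimb. For each of these genes the 3 penis libraries lay within a narrow range, well apart from both limb libraries. The log2 fold-change of penis over limb was 1.98 ± 0.06 (SE) for Tbx2, with an adjusted p of 3.2e-08, 2.54 ± 0.12 for Tbx3, with an adjusted p of 2.92e-07, and −2.65 ± 0.08 for Tbx15, with an adjusted p of 2.21e-08 (edgeR, 3 penis against 2 limb libraries). A gene was called at an adjusted p below 0.01 and a fold-change beyond 1 on the log2 scale in either direction, and 25.2% of the 20375 genes tested in mesenchyme were called, so a call by itself is common here.

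Tbx18 in mesenchyme was not called. It stood at 27.1, 24.4 and 29.0 CPM in penis, 64.3 in forelimb and 34.4 in hindlimb. The penis libraries lay below both limb libraries, but the limb libraries differed more from each other than the hindlimb did from penis. The log2 fold-change was −0.91 ± 0.21, with an adjusted p of 0.00405, and among the alternatives run it was past the limit without the hindlimb library, at −1.31, while without the forelimb library it was −0.38.

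Over the 8 gates that had at least 20 cells in every library, 21 of 32 pairs of gene and gate had enough counts to be tested. Of these, 9 were called higher in penis and 4 lower. Tbx3 was called higher in 5 of 7 gates, Tbx2 in 3 of 5 and Tbx18 in 1 of 4, and Tbx15 was called lower in 4 of 5. No gene was called in both directions. The filter on counts can be passed through 1 tissue alone. In pericytes and glia the Tbx3 calls rest on few limb UMIs, 4 and 1 in pericytes and 6 and 3 in glia. The Tbx15 call in pericytes rests on 19 UMIs over the 3 penis libraries. Of all genes tested, the share called higher in penis was 12.4% in mesenchyme, 9.18% in chondrocytes, 7.47% in tendon, 4.58% in pericytes, 8.54% in glia, 5.55% in epithelium and 7.36% in blood endothelium. The share called lower was 12.8%, 6.63%, 5.67%, 2.43%, 7.59%, 6.16% and 5.42% in the same order.

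**Figure D2:**
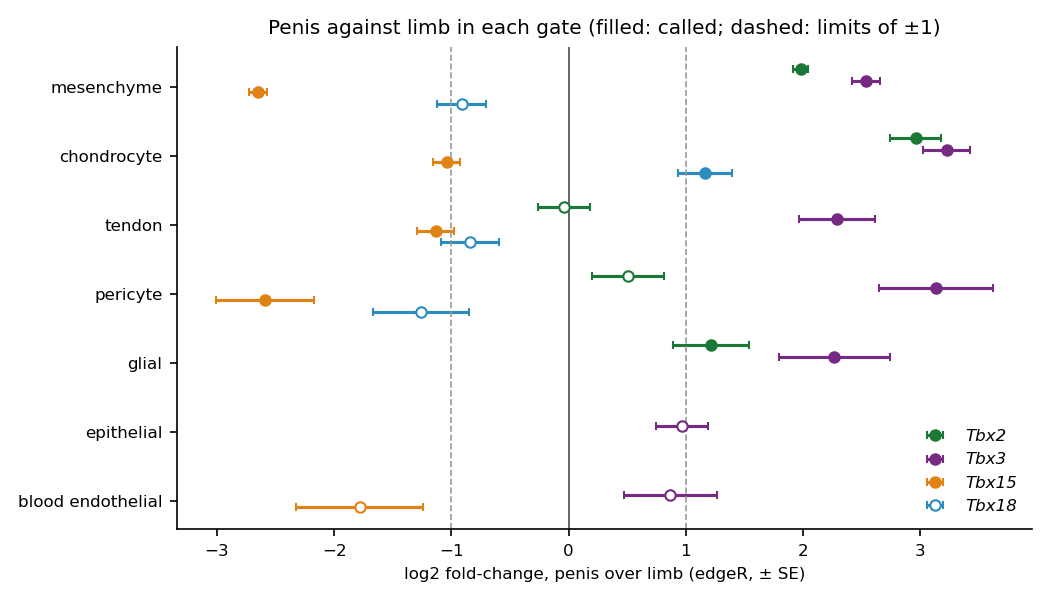
Log2 fold-change of penis over limb (x axis, with the SE as bars) for each gene in each gate (rows), filled where the call was made, with dashed lines at the limits of ±1. Tbx3 (2.54 in mesenchyme, 3.22 in chondrocytes) lies to the right in every gate and Tbx15 (−2.65 and −1.04) to the left.

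In chondrocytes, the cartilage cells, all 4 genes were called, against 15.8% of the 11201 genes tested there. The gate held 63 to 91 cells per penis library and 1486 and 1889 in forelimb and hindlimb. Tbx2 stood at 42.6, 41.7 and 35.8 CPM in penis, 4.18 in forelimb and 6.13 in hindlimb, a log2 fold-change of 2.96 ± 0.22 with an adjusted p of 7.77e-07. Tbx3 stood at 63.2, 61.1 and 61.3 CPM in penis, 8.36 in forelimb and 5.403 in hindlimb, a log2 fold-change of 3.22 ± 0.20 with an adjusted p of 2.16e-07. Both were several-fold higher in every penis library than in either limb library.

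Among gates of at least 20 cells per library, Tbx15 was at its highest in these cells in both tissues. It stood at 64.6, 75.4 and 66.4 CPM in penis, 145 in forelimb and 144 in hindlimb. Its log2 fold-change in chondrocytes was −1.04 ± 0.12, with an adjusted p of 2.44e-05, which was −0.99 without penis replicate 1 and −0.78 when thinned to 2000 UMIs, and then not past the limit. Tbx18 was higher in penis chondrocytes, at 39.0, 26.6 and 28.6 CPM against 17.05 in forelimb and 11.98 in hindlimb, the opposite direction to mesenchyme. Its log2 fold-change was 1.17 ± 0.23, with an adjusted p of 0.00156, and it was 0.96 without penis replicate 1, 0.89 without the hindlimb library, 0.77 with a stricter gate and 0.99 with all deposited barcodes, none of them past the limit. The penis chondrocyte gate carried more of other markers: its summed mesenchyme markers (10 genes) were at 4539 to 4606 CPM against 1665 to 1866 in limb, its osteoblast markers (9 genes) at 1085 to 1895 against 42.9 to 109, its pericyte markers at 629 to 789 against 96.7 to 156, its tendon markers at 573 to 608 against 135 to 202, its glial markers at 214 to 266 against 69.9 to 78.1, and its chondrocyte markers (10 genes) at 9248 to 11573 against 15400 to 16799. The penis chondrocytes were also deeper, with median depths of 14760 to 15608 UMIs against 4774 in forelimb and 5741 in hindlimb. The part of these markers and of depth in the differences of the 4 genes was not tested.

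In tendon cells, marked by Scx and Tnmd, 13.1% of 10656 genes were called, among them Tbx3 and Tbx15. Tbx3 stood at 71.9, 75.8 and 73.2 CPM in penis, 25.4 in forelimb and 7.32 in hindlimb, with a log2 fold-change of 2.29 ± 0.32 and an adjusted p of 9.36e-05, a call that a stricter gate ended (1.70) by its adjusted p. Tbx15 stood at 44.7, 45.3 and 45.5 CPM in penis, 120 in forelimb and 94.9 in hindlimb, with a log2 fold-change of −1.13 ± 0.16 and an adjusted p of 7.3e-05. It was not called without the forelimb library (−0.96), with a stricter gate (−0.57) or with mixed cells kept (−0.89). Tbx2 overlapped between the tissues, at 28.7, 19.4 and 23.7 CPM in penis, 29.0 in forelimb and 24.7 in hindlimb, with a log2 fold-change of −0.04 ± 0.22. Tbx18 gave −0.84 ± 0.25, with an adjusted p of 0.0174. The penis tendon gate also held more of the summed mesenchyme markers, 7661 to 9181 CPM against 3535 to 3718 in limb, and their part was not tested.

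In pericytes, with only 38 to 64 cells per library, 7.01% of 6830 genes were called, again with Tbx3 and Tbx15 among them. Tbx3 stood at 94.4, 73.2 and 94.1 CPM in penis, 15.4 in forelimb and 3.57 in hindlimb, with a log2 fold-change of 3.14 ± 0.49 and an adjusted p of 0.000424. The limb values rest on 4 and 1 UMIs. Tbx15 stood at 5.397, 23.02 and 15.3 CPM in penis, 100 in forelimb and 82.1 in hindlimb. The penis values of Tbx15 rest on 19 UMIs in all. Its log2 fold-change was −2.59 ± 0.42, with an adjusted p of 0.000595, a call that a stricter gate ended (−2.09) by its adjusted p. Tbx18 stood at 37.8, 16.7 and 22.9 CPM in penis, 46.3 in forelimb and 71.4 in hindlimb and was not called (−1.26 ± 0.41, adjusted p 0.0433). Tbx2 was not called, at 103, 94.2 and 86.5 CPM in penis, 42.4 in forelimb and 85.7 in hindlimb. Its level was highest in this gate among gates of at least 20 cells per library. The limb values of Tbx2 rest on 11 UMIs in forelimb and 24 in hindlimb. Its log2 fold-change was 0.51 ± 0.31, which was 1.09 without the hindlimb and 0.10 without the forelimb library.

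Glial cells of the peripheral nerves, with 16.1% of 10597 genes called, had higher Tbx2 and Tbx3 in penis. Tbx2 stood at 46.2, 27.2 and 27.9 CPM in penis, 13.6 in forelimb and 16.3 in hindlimb, with a log2 fold-change of 1.22 ± 0.32 and an adjusted p of 0.00432. Tbx3 stood at 34.7, 26.0 and 14.0 CPM against 6.81 and 3.75, with a log2 fold-change of 2.27 ± 0.47 and an adjusted p of 0.000508. The limb values of Tbx3 rest on 6 and 3 UMIs. In both cases penis replicate 1 was the highest, and every penis library was above both limb libraries. The Tbx2 call was lost without penis replicate 1, at 0.93 and inside the limit, and without the forelimb (1.10) or hindlimb library (1.33), where the adjusted p was above 0.01, as it was by DESeq2 (1.20). The Tbx3 call was lost without the hindlimb library (1.91) and when thinned to 2000 UMIs (1.46), though both values were past the limit.

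In epithelial cells (11.7% of 11508 genes called) only Tbx3 could be tested, at 40.3, 38.2 and 40.6 CPM in penis, 21.5 in forelimb and 20.04 in hindlimb. The libraries did not overlap, and the log2 fold-change of 0.97 ± 0.22, with an adjusted p of 0.00471, lay just inside the limit. It was called with no filter on low counts (1.03), with mixed cells kept (1.25) and when thinned to 2000 UMIs (2.03). In blood endothelial cells (12.8% of 12506 genes called) Tbx3 gave 0.87 ± 0.40 and Tbx15 −1.78 ± 0.54, with adjusted p of 0.0881 and 0.0113, neither called in the fit reported. Tbx15 was called without penis replicate 1 (−1.82) or penis replicate 3 (−2.03), with a stricter gate (−1.98), with all deposited barcodes (−1.97) and with mixed cells kept (−3.04), which also called Tbx3 (1.39). Endothelial Tbx15 stood at 0.779 to 1.92 CPM in penis and 4.34 to 4.69 in limb, from 15 and 16 UMIs. Leukocytes were at up to 1.61 CPM in penis and 4.87 to 6.03 in limb, so nothing is read from this about endothelium. In leukocytes no member had enough counts to be tested.

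The share of cells with a UMI showed the same differences in mesenchyme when every cell was thinned to 2000 UMIs. Tbx3 was found in 21.5% ± 0.24 (SD, n = 3) of penis cells and 3.87% ± 0.87 (SD, n = 2) of limb cells, and Tbx2 in 7.82% ± 0.22 and 1.99% ± 0.012. Tbx15 was found in 3.76% ± 0.39 of penis and 20.95% ± 1.4 of limb cells, and Tbx18 in 5.05% ± 0.44 and 8.75% ± 3.5. Each of these mesenchyme differences had p = 0.1 in the exact permutation test, two-sided, which is the smallest that 3 against 2 libraries can give, and 0.139 after adjustment over 32 comparisons. In leukocytes the share was at most 0.714% ± 0.41 in penis, for Tbx3, and 1.04% ± 0.020 in limb, for Tbx15.

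The forelimb and hindlimb libraries were 1 each, so their difference has no replicate check and intervals cover counting error only. In mesenchyme, Tbx18 was 1.87 times as high in forelimb as in hindlimb (95% interval 1.78 to 1.96, from 4999 and 2762 UMIs) and Tbx3 1.36 times (1.27 to 1.45). Tbx15, at 1.13 times (1.10 to 1.16), and Tbx2, at 1.05 times (0.95 to 1.16), were closer. Tbx3 was 1.55 times as high in forelimb chondrocytes (1.11 to 2.16) and 3.46 times in tendon cells (2.17 to 5.73), and in chondrocytes Tbx15 was level, at 1.00 (0.94 to 1.08).

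The second comparison set each cell type against the mesenchyme of the same libraries, in one model with the library as a block over 15509 genes. The orders cover gates with at least 20 cells in every library of a tissue. Limb smooth muscle, with 10 cells in forelimb and 7 in hindlimb, is thus left out. Tbx2 was highest in pericytes among the covered gates of both tissues. In penis it fell in the order pericyte (94.4 ± 8.0 CPM, SD, n = 3), osteoblast (57.2 ± 14.7), smooth muscle (52.9 ± 3.0), mesenchyme (40.5 ± 1.3), chondrocyte (35.8 to 42.6), glia (33.8 ± 10.8) and tendon (24.0 ± 4.7), before the gates near 1 CPM. The ranges of osteoblast and smooth muscle overlapped, as did those of each neighbouring pair from mesenchyme to tendon. The osteoblast gate held only 24 to 29 cells per penis library, and with 15 in forelimb and 11 in hindlimb it is not shown for limb. Its penis values rest on 61 UMIs of Tbx2, 76 of Tbx3, 15 of Tbx15 and 25 of Tbx18. In limb the order was pericyte (64.0), tendon (26.8), glia (14.9), mesenchyme (10.1) and chondrocyte (5.16), with no overlap between the libraries of neighbours. Pericytes thus stood at 94.4 CPM in penis and 64.0 in limb, and mesenchyme at 40.5 and 10.1. The difference of effects given next also holds the change in mesenchyme. Over mesenchyme, pericytes were higher by 1.19 ± 0.17 (log2) in penis, where 10.7% of genes were called, and by 2.61 ± 0.32 in limb, where 4.85% were, both called. The difference of these effects, −1.42 ± 0.33 with an adjusted p of 0.00611, was called at a background of 1.37%, but its adjusted p was above 0.01 when any one of the penis libraries was left out, and without the hindlimb library it was −0.77; without that library the limb effect itself was 1.95 with an adjusted p above 0.01.

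Tbx3 was at its highest in mesenchyme in penis, and in limb no gate stood apart at the top. In penis its order was mesenchyme (125 ± 2.2 CPM), smooth muscle (96.8 ± 9.9), pericyte (87.3 ± 12.2), tendon (73.6 ± 2.0), osteoblast (71.6 ± 3.0), chondrocyte (61.8 ± 1.1), epithelium (39.7 ± 1.3), glia (24.9 ± 10.4) and blood endothelium (8.60 ± 2.2). Mesenchyme stood apart from all others, and the gates from smooth muscle to osteoblast overlapped with their neighbours. In limb, mesenchyme (21.1), epithelium (20.7) and tendon (16.3) overlapped, and the highest gate was tendon in forelimb (25.4) and epithelium in hindlimb (20.04). Epithelium was thus lower than mesenchyme in penis, by 1.39 ± 0.12 (log2 fold-change −1.39, called, background 33.7%), and level with it in limb, at 0.15 ± 0.29. The difference of the effects was −1.54 ± 0.35, with an adjusted p of 0.000725 and a background of 9.44%, and was not called without the hindlimb library, at −1.39. The gate differed in make-up, led by Krt15, Krt14 and Krt5 in penis, with 6 of its own markers among its 10 leading genes, and by Asprv1, Krt15 and Mal in limb, with 2. The part of this make-up in the difference was not tested. Mesenchyme stood at 125 CPM in penis and 21.1 in limb, and epithelium at 39.7 and 20.7, so the difference also holds the change in mesenchyme.

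Tbx15 in cartilage and tendon lay further from mesenchyme in penis than in limb. Penis chondrocytes were at 68.8 ± 5.8 CPM, tendon cells at 45.2 ± 0.39 and mesenchyme at 21.5 ± 1.7, with no overlap between libraries, followed by smooth muscle (19.6 ± 7.6), pericytes (14.6 ± 8.8) and osteoblasts (13.5 ± 7.1), which overlapped with mesenchyme or each other. In limb, chondrocytes (145), mesenchyme (132), tendon (107) and pericytes (91.2) came in that order, in which only tendon and pericytes overlapped, and skeletal muscle followed at 42.2. Penis chondrocytes exceeded mesenchyme by 1.73 ± 0.14 (log2), with an adjusted p of 3.27e-14 and a background of 12.6%, while limb chondrocytes differed by 0.13 ± 0.10 (background 13.7%). The difference of the effects was 1.60 ± 0.17, with an adjusted p of 3.19e-10, against 8.31% of genes called. For tendon the effect was 1.21 ± 0.16 in penis (background 8.78%) and −0.30 ± 0.11 in limb (background 3.95%), and the difference of 1.51 ± 0.20, with an adjusted p of 1.93e-07, was called against 4.46%.

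Tbx18 overlapped over the penis gates of mesenchymal origin and was low in limb cartilage. In penis, chondrocytes (31.4 ± 6.7 CPM), mesenchyme (26.8 ± 2.3), pericytes (25.8 ± 10.8), osteoblasts (24.6 ± 18.9), smooth muscle (19.0 ± 5.4) and tendon (17.5 ± 5.2) each overlapped with the next, and all other gates were below 1 CPM. In limb, pericytes (58.8), mesenchyme (49.4) and tendon (34.8) overlapped, and chondrocytes stood apart at 14.5. Limb chondrocytes were lower than limb mesenchyme, with a log2 fold-change of −1.73 ± 0.15 and an adjusted p of 1.69e-13, whereas penis chondrocytes gave 0.29 ± 0.19. The difference of the effects was 2.02 ± 0.25, with an adjusted p of 2.32e-08. In skeletal muscle, found only in the limb gates, the log2 fold-changes against mesenchyme were −1.24 for Tbx15 and −4.48 for Tbx18, both called where 34.1% of genes were.

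The effect of tendon against mesenchyme differed for Tbx2 as well. Tbx2 in tendon was above mesenchyme in limb, by 1.41 ± 0.16 (log2, called), and below it in penis, at −0.62 ± 0.17. The difference of the effects was −2.03 ± 0.23 with an adjusted p of 5.61e-09. Tendon itself stood at 24.0 CPM in penis and 26.8 in limb, and mesenchyme at 40.5 and 10.1. Nothing is thus read from this about a change of Tbx2 within tendon. In blood endothelium Tbx2 was below mesenchyme in both tissues, at 0.639 to 1.64 CPM in penis and 1.76 to 2.71 in limb, and the difference of the effects was −2.98 ± 0.75 with an adjusted p of 0.00249 and a background of 8.73%. The endothelial values rest on 13 UMIs in penis and 8 in limb, near the level of up to 1.38 CPM in leukocytes, and mesenchyme itself differed by 1.98, so nothing is read from this about endothelium. Its adjusted p was above 0.01 without penis replicate 3, the forelimb or the hindlimb library. In penis glia Tbx2 was level with mesenchyme (−0.19 ± 0.14), while Tbx15 and Tbx18 in penis glia were at or below 1.55 and 0.78 CPM.

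The third comparison asked where within the mesenchyme the genes lie. The mesenchyme cells of each library were divided into those with and those without a UMI of another gene, for 22 genes that mark regions, fibroblast states or limb pattern, and the 4 members were compared between the cells with and without it. A cell without a UMI may still express the gene, and the cells with one were deeper in 102 of the 105 cases in which both kinds of cell were found (Ccl19 had no cell with a UMI), so the log2 fold-changes are those of relative levels in sums of unequal depth per cell. In penis 17 splits and in limb 20 could be tested, 16 of them in both.

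**Figure D3:**
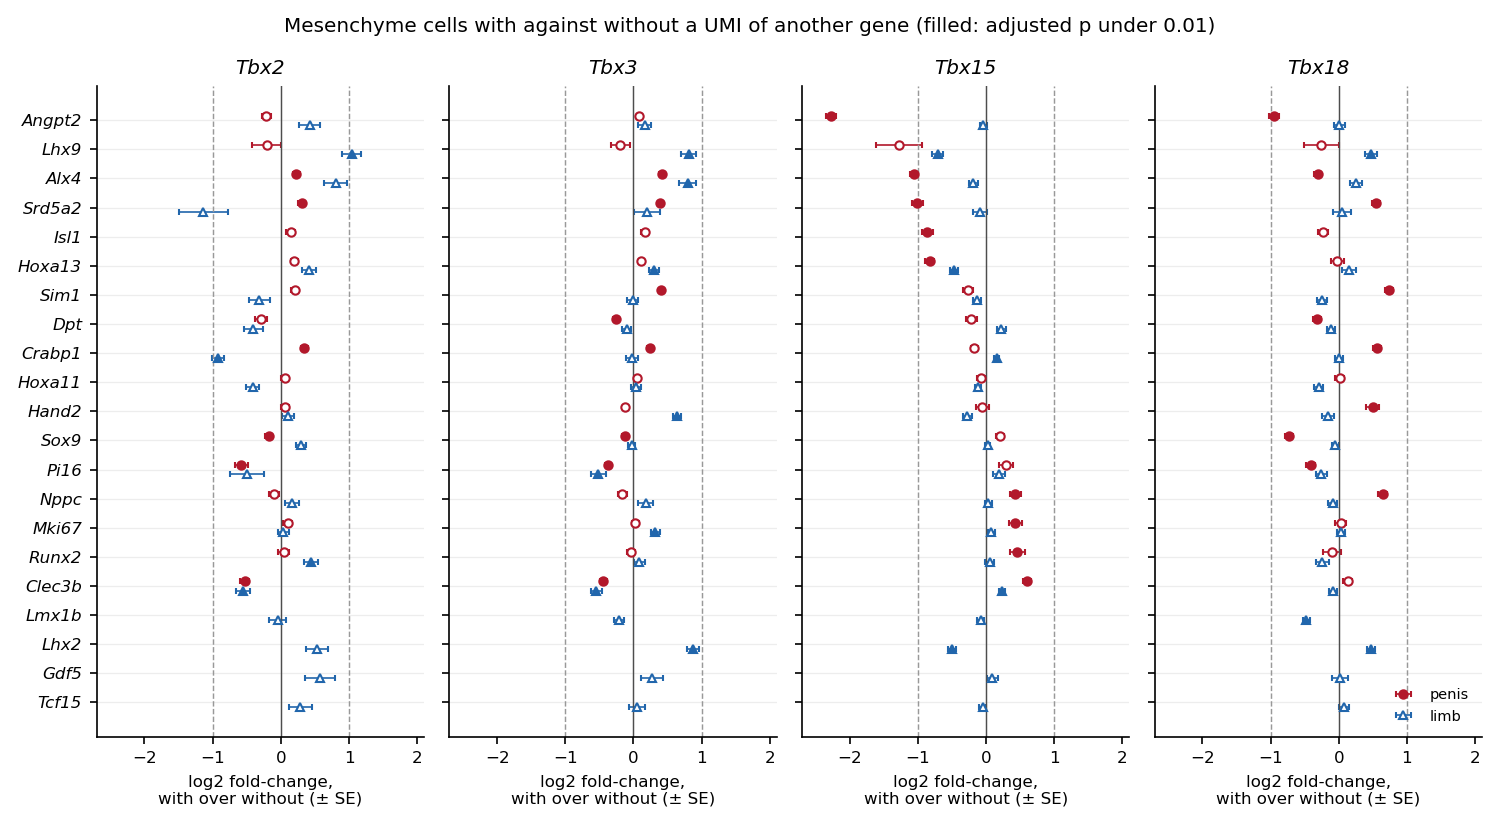
Log2 fold-change between mesenchyme cells with and without a UMI of the gene named at the left (x axis, with the SE as bars), in penis (red circles) and limb (blue triangles), filled where the adjusted p is below 0.01. Tbx15 in penis spans −2.27 for Angpt2 to 0.60 for Clec3b, while its limb values span −0.71 for Lhx9 to 0.24 for Clec3b.

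Tbx15 was the member most unevenly spread in penis mesenchyme. Its UMIs were found in fewer cells than an even spread by depth would give: the ratio of observed to expected cells was 0.62 to 0.63 in the penis libraries and 0.82 to 0.84 in limb. For Tbx18 the ratio was 0.74 to 0.77 in penis and 0.80 to 0.83 in limb, and for Tbx2 and Tbx3 it was 0.90 to 0.93 in penis. In limb it was 0.87 to 0.89 for Tbx2 and 0.82 for Tbx3, close to the limb ratio of Tbx15.

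Penis cells with a UMI of Angpt2, which encodes a secreted ligand of the vascular Tie2 receptor, made up 32.9 to 34.4% of the gate. Tbx15 stood at 5.94, 6.67 and 7.03 CPM in them and at 31.5, 26.5 and 31.7 in the cells without. The log2 fold-change was −2.27 ± 0.08, with an adjusted p of 1.99e-15, where 10% of genes were called. In limb, where 6.01 to 6.88% of cells had an Angpt2 UMI, Tbx15 was 144 and 126 CPM with and 139 and 124 without, and the difference of the effects was −2.23 ± 0.09, with an adjusted p of 5.91e-13 and a background of 6.43%. The penis mesenchyme cells with Angpt2 also had less of the summed mesenchyme markers, 4634 to 4786 CPM against 9458 to 9773, and less of the tendon markers, 78.9 to 98.3 against 225 to 246. Their part in the result was not tested.

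Tbx15 was also lower in penis cells with Alx4, a homeobox gene of anterior limb and genital mesenchyme, and with Srd5a2, which encodes a steroid-converting enzyme. With Alx4 it stood at 15.2, 12.7 and 14.0 CPM and without at 28.0, 25.1 and 29.7, a log2 fold-change of −1.05 ± 0.06 (called, background 2.51%). With Srd5a2 it stood at 12.1, 14.2 and 13.03 CPM and without at 27.6, 22.7 and 27.7, a log2 fold-change of −1.01 ± 0.08 (called, background 2.37%), which was −0.90 without penis replicate 1 and −0.96 without penis replicate 3. In limb neither split gave a call, where 0.136% (Alx4) and 0.284% (Srd5a2) of genes were called. Few limb mesenchyme cells held these genes, 2.13% in forelimb and 2.40% in hindlimb for Alx4 and 0.958% and 1.25% for Srd5a2. Isl1 (−0.86 ± 0.08) and Hoxa13, a distal Hox gene (−0.82 ± 0.07), gave lower Tbx15 in penis with adjusted p below 0.01 but inside the limit. Hoxa13 did so in limb as well (−0.47 ± 0.05, adjusted p 2.61e-05), at 102 CPM with it in both libraries and 144 and 128 without. Cells with Clec3b, a fibroblast gene, had more Tbx15 in both tissues, by 0.60 ± 0.06 in penis and 0.24 ± 0.04 in limb.

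**Figure D4:**
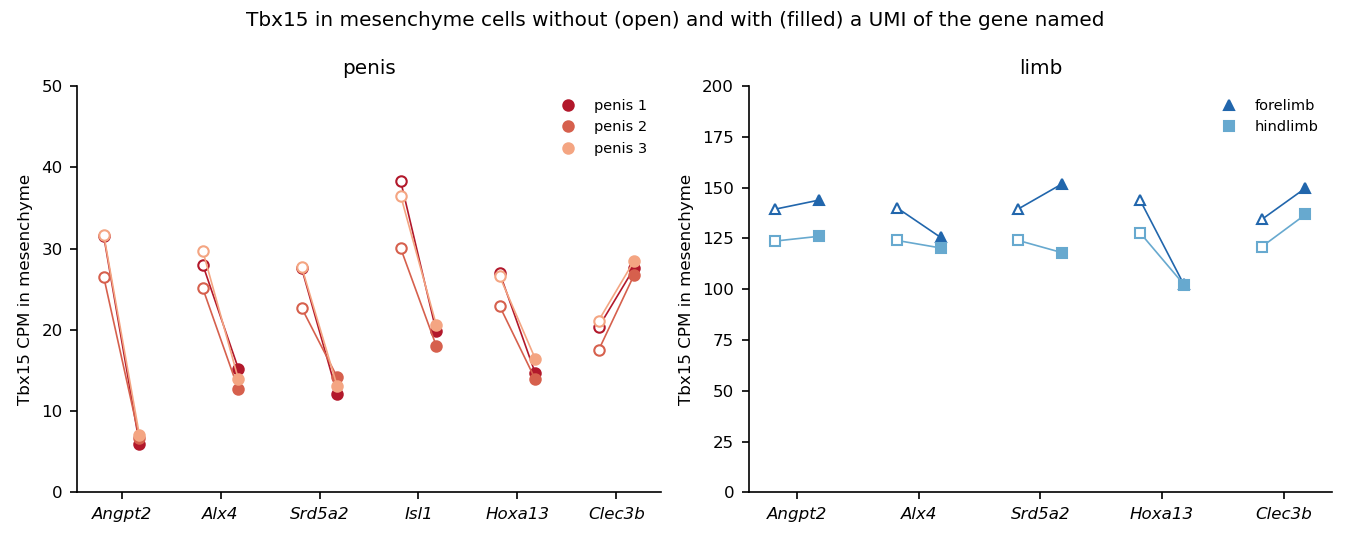
Tbx15 level in CPM in mesenchyme cells without (open symbols) and with (filled symbols) a UMI of each gene on the x axis, with lines joining the values of a library; the y axes of penis and limb differ. In penis every library falls from 26.5 to 31.7 CPM without Angpt2 to 5.94 to 7.03 with it, and in limb the values with and without Angpt2 are close.

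Within the penis cells without Angpt2, Tbx15 still differed by the other genes. It stood at 16.98, 18.5 and 16.5 CPM in cells with Srd5a2 and at 39.6, 31.2 and 39.5 without. With Alx4 it reached at most 24.2 CPM, and without Alx4 it was at least 31.4, so the libraries did not overlap in either case. These are values of subdivided sums, with no test.

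Tbx18 shared the lower level in Angpt2 cells, at 17.2, 15.8 and 19.7 CPM with and 33.0, 29.0 and 34.2 without, a log2 fold-change of −0.95 ± 0.07 with an adjusted p of 6.03e-10, just inside the limit. With Srd5a2 it went opposite to Tbx15, at 34.8, 31.5 and 35.4 CPM with and 22.9, 20.3 and 25.7 without, a log2 fold-change of 0.54 ± 0.06. It was also higher with Sim1 (0.74 ± 0.06), Nppc (0.64 ± 0.07), Crabp1 (0.56 ± 0.06) and Hand2 (0.50 ± 0.10) and lower with Sox9, the cartilage regulator (−0.73 ± 0.06). In limb Tbx18 was lower with Lmx1b, the dorsal limb factor (−0.47 ± 0.06), and higher with Lhx2 (0.47 ± 0.06) and Lhx9 (0.47 ± 0.09), distal limb factors. All of these had adjusted p below 0.01.

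Tbx2 and Tbx3 were more even in penis mesenchyme by the ratio of observed to expected cells given above. No penis split was called for Tbx2, Tbx3 or Tbx18. Tbx3 was higher with Alx4 (0.41 ± 0.04), Sim1 (0.41 ± 0.03) and Srd5a2 (0.39 ± 0.03) and lower with the fibroblast genes Clec3b (−0.44 ± 0.05) and Pi16 (−0.37 ± 0.04). Tbx2 was higher with Srd5a2 (0.31 ± 0.05) and Alx4 (0.23 ± 0.05) and lower with Pi16 (−0.58 ± 0.10) and Clec3b (−0.53 ± 0.07). Tbx15 thus moved against Tbx2 and Tbx3 in the splits by Alx4, Srd5a2 and Clec3b, each with an adjusted p below 0.01. This did not hold in every split. By Angpt2, Tbx2 gave −0.21 ± 0.07 and Tbx3 0.08 ± 0.03, both with adjusted p above 0.01. With Dpt, Tbx2 (−0.29 ± 0.09), Tbx3 (−0.25 ± 0.04) and Tbx15 (−0.22 ± 0.08) were all lower, with an adjusted p below 0.01 for Tbx3 only.

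In limb mesenchyme, Tbx2 and Tbx3 were higher in Lhx9 cells, which were 6.41 to 7.29% of the gate. Tbx2 stood at 17.8 and 22.8 CPM with Lhx9 and 9.65 and 8.83 without in forelimb and hindlimb, a log2 fold-change of 1.04 ± 0.14, called where 3.51% of genes were, but 0.79 without the hindlimb library. Tbx3 stood at 37.7 and 35.7 CPM with and 23.1 and 16.5 without (0.81 ± 0.11). In penis few cells held Lhx9, and the penis minus limb difference was −1.25 ± 0.24 for Tbx2 and −1.001 ± 0.17 for Tbx3, both called where 1.72% of genes were. Neither was called without the hindlimb library (−1.03 and −0.85), and the Tbx3 difference was not called without penis replicate 3 either (−0.84). Limb Tbx3 was also higher with Lhx2 (0.88 ± 0.09), Alx4 (0.79 ± 0.13) and Hand2, the posterior limb factor (0.64 ± 0.06). Tbx15 was lower with Lhx9 (−0.71 ± 0.08) and Lhx2 (−0.50 ± 0.06). Tbx2 was lower with Crabp1, a retinoic acid binding protein, in limb (−0.92 ± 0.08) and higher in penis (0.34 ± 0.05), a difference of 1.26 ± 0.10 with an adjusted p of 2.58e-07 and a background of 3.56%.

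In the mesenchyme gate, Tbx3 and Tbx15 were found together in single cells less often than separate detection would give in every library, and Tbx2 and Tbx3 more often. In mesenchyme cells thinned to 2000 UMIs, the share with both genes divided by the product of their shares was 1.10 to 1.20 in penis and 1.49 to 2.29 in limb for Tbx2 with Tbx3, and 1.30 to 1.51 in penis and 1.00 to 1.20 in limb for Tbx15 with Tbx18. Across these groups, Tbx2 with Tbx18 gave 1.19 to 1.31 in penis and 0.87 to 1.11 in limb, Tbx3 with Tbx18 0.99 to 1.16 and 1.07 to 1.48, and Tbx2 with Tbx15 0.86 to 1.04 and 0.85 to 0.88. For Tbx3 with Tbx15 it was below 1 in all 5 libraries, at 0.69 to 0.74 in penis and 0.79 to 0.92 in limb. In the smaller gates the ratios of these pairs went both ways. Tbx3 with Tbx15 was at 1.11 to 1.21 in penis tendon, and Tbx2 with Tbx3 at 0.87 to 1.22 there. These are descriptions of each library with no test.

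Over 53 sums of gate and library, which share libraries, and 12827 genes, Pearson's r of log2(CPM + 1) gave the genes most like each member. For Tbx2 they were Lrrtm3 (0.914), Col3a1 (0.912), Mmp23 (0.911), Kcnn2 (0.892) and Rarres2 (0.885). For Tbx3 they were its antisense gene Tbx3os1 (0.893), Lncppara (0.880), Mir100hg (0.865), Ndp (0.861) and Dzip1 (0.856). For Tbx15 they were Nrk (0.907), Dnm3os (0.875), Mirg (0.862), Dlk1 (0.860) and Fbn2 (0.853). For Tbx18 they were the gate markers Twist1 (0.939) and Prrx1 (0.912) with Ddr2 (0.911), Aspn (0.897) and Col6a2 (0.890). Among the members themselves, r was 0.772 for Tbx15 with Tbx18, 0.758 for Tbx2 with Tbx18, 0.706 for Tbx2 with Tbx3, and 0.231 for Tbx3 with Tbx15.

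**Figure D5:**
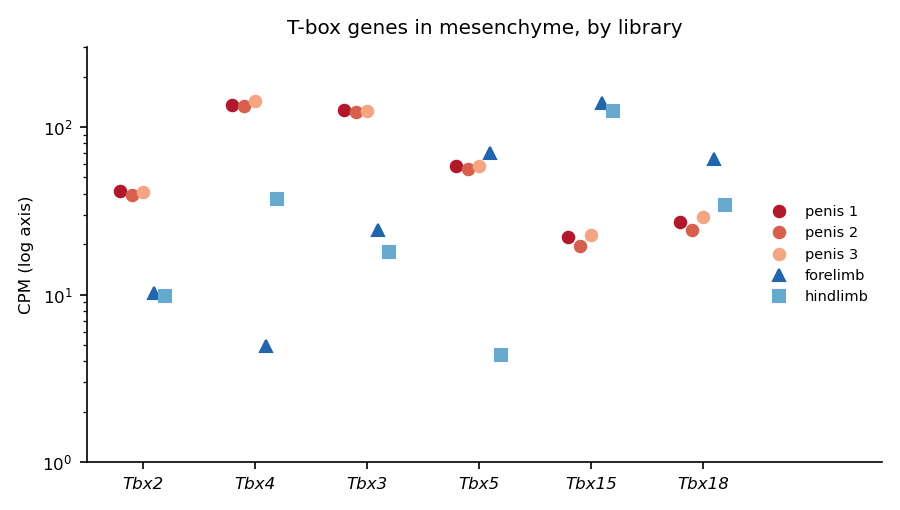
Level in mesenchyme (y axis, CPM on a log scale) of the 4 members and of Tbx4 and Tbx5, the genomic neighbours of Tbx2 and Tbx3, with 1 point per library. Levels are to be compared between libraries within a gene; the limb libraries differ from each other far more for Tbx4 and Tbx5 than for the members.

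Other genes of the pathway were described in mesenchyme from lists of related genes, where 40 of 48 listed genes were tested. Of 13 other T-box genes, 7 were tested, 1 rose and 2 fell in penis relative to limb, with a median log2 fold-change of −0.04 against 0.01 over all genes. Tbx4, a hindlimb and genital factor, stood at 136, 134 and 144 CPM in penis, 4.95 in forelimb and 37.2 in hindlimb, a log2 fold-change of 2.69 ± 0.61 with an adjusted p of 0.00361. Tbx5, the forelimb factor, stood at 58.6, 55.9 and 58.8 CPM in penis, 69.9 in forelimb and 4.35 in hindlimb and was not called (0.60 ± 0.76). Tbx2, beside Tbx4 on the chromosome, was at 1.05 times in forelimb over hindlimb, and Tbx3, beside Tbx5, was higher in forelimb as Tbx5 was, but by 1.36 times. The fallen genes were low, with Tbx1 at 0.358 to 0.554 CPM in penis and 1.36 to 2.30 in limb, and Tbx21 at 3.24 to 4.04 and 8.07 to 8.26.

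Of 12 genes that T-box factors are known to repress, 11 were tested, 1 rose and 3 fell, with a median of −0.06. Cdkn1c, which encodes the cell cycle inhibitor p57, stood at 808 to 845 CPM in penis and 2859 to 2995 in limb (−1.85 ± 0.07). Shisa3 was at 0.0411 to 0.0842 CPM in penis and 1.94 to 2.78 in limb, Ndrg1 fell by less (−1.11 ± 0.05), and Frzb, a Wnt antagonist, rose (1.05 ± 0.12). Of 9 partners and co-repressors, all tested, 2 rose and 1 fell, with a median of 0.39: Pax3 (5.78 ± 0.22), Alx4 (4.37 ± 0.07) and Gli3, the hedgehog pathway repressor (−1.12 ± 0.08). The 4 Tle co-repressors and both histone deacetylases in that list were inside the limit.

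Of 14 upstream signals and limb or genital factors, 13 were tested, 4 rose and 2 fell, with a median of 0.19. Isl1, a genital and hindlimb factor, stood at 238, 240 and 246 CPM in penis, 0.244 in forelimb and 2.78 in hindlimb. Msx1 and Msx2, targets of BMP signaling, rose by 2.35 ± 0.08 and 2.13 ± 0.08, and Bmp4, a ligand of the BMP pathway that is known to induce Tbx2 and Tbx3, by 1.43 ± 0.06. The 2 that fell were Irx3 (−1.35 ± 0.11) and Ptch1, the hedgehog receptor (−1.04 ± 0.08), named after their values were seen. Each list's count stands beside the 25.2% of all tested genes that were called in mesenchyme.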

How the data were processed

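The deposited files hold raw UMI counts per gene and barcode, made by the authors with 10X 3' libraries and Cell Ranger 7.0.0 against mm10; whether introns were counted is not given in the sources used here. The limits of the study's methods, which word them as reads per cell, were applied to detected genes and kept cells with 500 to 6000 genes (penis), 100 to 9000 (forelimb) or 100 to 9500 (hindlimb), at most 5% or 10% mitochondrial UMIs (penis, limb) and log10 genes per log10 UMI of at least 0.8. Gates need 3 to 6 markers of a list. Cells in the gates of 2 lineages or past a limit on other markers (165 to 224 per penis library, 659 and 856 in limb) were set aside and no doublet caller was run. The limit was 5 mesenchyme markers, or for pericytes and smooth muscle 8 mesenchyme or 4 endothelial markers. Chondrocytes, osteoblasts and tendon cells had no such limit, and cells in both the chondrocyte and the osteoblast gate were kept as chondrocytes. Marker minimums were set after the marker distributions, but not the members, were seen.

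Counts summed per library and gate (at least 20 cells) were tested with edgeR 4.0.16 (TMM, filterByExpr, quasi-likelihood, Benjamini-Hochberg over all genes tested), tested on simulated data first. The SE was taken as |log2 fold-change| / √F from that test. Cell types and splits of mesenchyme were fitted with the library as a block, since they come from one suspension. Shares were thinned to 2000 UMIs, which leaves out shallower cells. Alternatives were DESeq2 1.42.0, RLE scaling, no filter, a stricter gate, all barcodes, mixed cells kept, thinning, no block and leaving out each library. Related genes were named by a rule: at most 4 called genes per list with the largest change, and the 5 genes most alike per member; Tbx5 was added for its place beside Tbx3, and Irx3 and Ptch1 after their values were seen. The split by 1 further gene is not reported here. The members, lists and tests were chosen with earlier results of these data known.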

Additional observations from a re-analysis of the deposited data

Results flagged for a closer look

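The effect of a cell type against mesenchyme differed between penis and limb, by a test of the difference itself (penis minus limb, log2), in 7 pairs of member and gate. For Tbx15 it was 1.60 in chondrocytes and 1.51 in tendon, and for Tbx18 2.02 in chondrocytes. For Tbx2 it was −2.03 in tendon, −1.42 in pericytes and −2.98 in blood endothelium, where penis Tbx2 was 0.639 to 1.64 CPM and limb 1.76 to 2.71, from 13 and 8 UMIs and near the level in leukocytes. For Tbx3 in epithelium it was −1.54. Of all genes tested, this difference was called for 8.31% in chondrocytes, 4.46% in tendon, 1.37% in pericytes, 8.73% in blood endothelium and 9.44% in epithelium. The effect of a split of the mesenchyme differed in 4 of 64 pairs of member and split. These were −2.23 for Tbx15 by Angpt2, −1.25 for Tbx2 and −1.001 for Tbx3 by Lhx9, and 1.26 for Tbx2 by Crabp1. Of all genes tested, 6.43% were called in the difference by Angpt2, 1.72% by Lhx9 and 3.56% by Crabp1. Only 0.747 to 1.00% of penis mesenchyme cells held an Lhx9 UMI.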

How the results depend on the processing

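No called value reversed under the alternatives run. The call or lack of one was kept (counts of genes within 1.5 times) in 295 of 337 recomputed values of penis against limb. It was kept in 750 of 768 of cell types and 1165 of 1184 of splits. A value that was called in neither fit counts as kept even where its sign changed. For shares only the sign was compared, and it was kept in 92 of 96. Without the replicate block, all 96 type effects and 210 of 212 split effects kept their call or lack of one; Tbx3 by Lhx9 (penis minus limb) became −0.99. Thinning to 2000 UMIs gave −0.78 for Tbx15 in chondrocytes, not called, and 716, 535 and 148 genes called in chondrocytes, tendon and pericytes (1771, 1400 and 479 otherwise). A stricter gate ended the calls of these values: 0.77 for Tbx18 in chondrocytes, 1.70 for Tbx3 and −0.57 for Tbx15 in tendon, −2.09 for Tbx15 in pericytes, and −1.45 for the Tbx2 pericyte difference, of which 1.70, −2.09 and −1.45 were lost by the adjusted p. It called 766 genes in tendon and, in blood endothelium, Tbx15 (−1.98). With mixed cells kept, Tbx15 in tendon was −0.89, not called, and Tbx2 in pericytes (1.07) and Tbx3 (1.39) and Tbx15 (−3.04) in blood endothelium were called, with 955 genes called in pericytes; DESeq2 called 279 there and no filter 737. Tbx3 in glia thinned to 2000 UMIs was 1.46 and not called, and Tbx3 in epithelium was called with no filter (1.03), with mixed cells kept (1.25) and thinned (2.03). By Spearman correlation the 5 most alike genes moved for 2 of the 4 members. With all deposited barcodes Tbx18 in chondrocytes was 0.99, not called, and Tbx15 in blood endothelium was called (−1.97). The cause of these shifts was not tested.

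Leaving out each library in turn ended the call of 14 results in at least 1 case and gave one to 15 others. Of those described, the call changed, by the adjusted p or the limit on the fold-change, for Tbx18 in mesenchyme (−1.31 to −0.38), Tbx15 in chondrocytes (−1.12 to −0.99) and tendon (−1.31 to −0.96), Tbx18 in chondrocytes (0.89 to 1.44), Tbx2 (0.93 to 1.37) and Tbx3 in glia (1.91 to 2.78), Tbx15 in blood endothelium (−2.03 to −1.51), Tbx2 in limb pericytes against mesenchyme (1.95 to 3.04), Tbx15 by Srd5a2 in penis (−1.17 to −0.90) and Tbx2 by Lhx9 in limb (0.79 to 1.29). Of the differences between tissues it changed, in the same sense, for Tbx2 in pericytes (−1.85 to −0.77) and blood endothelium (−3.37 to −2.60), Tbx3 in epithelium (−1.69 to −1.39), Tbx2 by Lhx9 (−1.53 to −1.03) and Tbx3 by Lhx9 (−1.27 to −0.84). Splits tested only in limb could not be fitted so. With 2 limb libraries of different limbs, limb and library cannot be told apart.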
